A study of Mus musculus with 15 samples.

Results

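The creatine system of the left ventricle was followed through 8 genes chosen by name: the creatine kinases Ckm, Ckmt2 and Ckb, the adenylate kinases Ak1 and Ak4, the creatine transporter Slc6a8, and the creatine synthesis enzymes Gatm and Gamt. All 8 were found among the 55487 genes of the deposited tables, and all 8 had enough counts to be tested. The tissue was left ventricle, cut from the midline of its free wall, of chow-fed male mice aged 225 days. All animals were anaesthetised, with isoflurane according to the sample titles and with ketamine and xylazine according to the treatment protocol, and the labels do not settle which. The kidney disease group held 7 mice with a Col4a5 mutation, which the labels call a knockdown and the design text a collagen IV knockout, and the wild-type group held 8 littermates without it. Col4a5 encodes a type IV collagen chain of the glomerular filter, and the labels describe kidney disease that is advanced at this age. The design text calls the samples biological replicates, and the study asked how the heart, and its metabolism in particular, differs in chronic kidney disease.

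Creatine kinases move a high-energy phosphate between ATP and creatine, so that phosphocreatine buffers ATP and carries energy from mitochondria to the contractile filaments and ion pumps. In heart muscle the mitochondrial form sits in the intermembrane space beside the adenine nucleotide carrier, and the muscle form is cytosolic and partly bound to the M-band of the sarcomere. Adenylate kinases run a parallel exchange between ATP, ADP and AMP. Creatine itself is made in kidney, pancreas and liver. Arginine and glycine give guanidinoacetate, which is then methylated to creatine. Heart muscle takes creatine up from blood through its transporter.

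The muscle kinases differed little between groups, while the transporter gene Slc6a8, the synthesis gene Gatm and the brain-type kinase gene Ckb had higher values in kidney disease that did not pass the test. None of the 8 genes passed edgeR's quasi-likelihood test (adjusted p from 0.095 to 0.99), while 1.28% of the 20718 genes tested did. At an unadjusted p under 0.05 there were 3 of 8, Gatm, Ckb and Slc6a8, beside 12.4% of all genes tested. Their levels were above the wild-type mean in 7 of 7 kidney disease animals. DESeq2 called 1 of the 8, Gatm, beside 3.74% of the genes it tested (2.21% higher in kidney disease), and limma-voom called 0. The median log2 difference of the 8 genes was 0.02, and that of all genes tested was 0.00421. In bulk tissue, fewer cells of a type and less RNA per cell cannot be told apart.

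The libraries held 48748379 to 65519279 counts, and Col4a5 itself was 13.5 ± 2.97 CPM (SD, n = 7) in kidney disease and 57.0 ± 4.93 CPM (SD, n = 8) in wild type, with no overlap. CPM is the usual depth-scaled count, here with library totals corrected for composition by TMM scaling. Of the 10 cardiomyocyte markers, all were above 1 CPM, with a summed level of 72092 to 81158 CPM in the diseased animals, against 72868 to 95478 CPM in the wild-type ones. None of the 10 passed edgeR's test, and 3 had an unadjusted p under 0.05, with log2 differences of -0.30, -0.22 and -0.17; their part in the values of Ak1 and Ak4 was not tested. Skeletal muscle, which also makes much Ckm, was represented by 10 markers whose sums were 17.1 to 32.4 CPM and 22.7 to 33.3 CPM. Of these, 9 were below 1 CPM on average and Tnnc2 was at 0 in every library. The sums came mostly from the remaining marker, so they do not measure the list as a whole. Only 5 of the 10 were tested, with 0 past the threshold and a median log2 difference of -0.32. The libraries fell into 2 kinds: titin (Ttn) had the most counts in 3 kidney disease libraries (4, 5, 7) and 2 wild-type ones (6, 7), and the mitochondrial gene mt-Co1 in the other 10. Wild type 7 had the lowest level of all libraries for 6 of the 8 genes (Ckm, Ckmt2, Ckb, Slc6a8, Ak1 and Ak4), and kidney disease 6 had the highest of its group for 5 (Ckm, Ckmt2, Ckb, Gatm and Ak1). Values without both animals are given below beside each gene. The 2 animals were picked on levels of these same genes. Where kidney disease 6 is high and wild type 7 low in its group, leaving them out lowers the difference by construction. Such a fit is therefore no independent check.

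The sequence before the start of Ckm, Ckmt2 and Ckb is shown as a description. A link between its motifs and how these genes varied across animals was not tested. The sequences are from RefSeq on GRCm38.p6, cover up to 250 bases before the RefSeq start, and stop where an annotated exon of the gene begins. RefSeq windows were found for 7 of the 8 genes. The Ckm window lies inside the annotated span of the gene, which has an earlier start in GENCODE. Capitals mark E-boxes (CANNTG, the core bound by muscle and other basic helix-loop-helix factors), the TATA sequence TATAAA and the MEF2 site, a motif bound by the MEF2 family of muscle factors.
Ckm (chr7:19410844-19411024, plus strand): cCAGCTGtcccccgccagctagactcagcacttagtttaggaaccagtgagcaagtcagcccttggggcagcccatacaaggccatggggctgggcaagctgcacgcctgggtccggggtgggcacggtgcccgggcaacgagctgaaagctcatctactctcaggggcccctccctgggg
Ckmt2 (chr13:91876886-91877135, minus strand): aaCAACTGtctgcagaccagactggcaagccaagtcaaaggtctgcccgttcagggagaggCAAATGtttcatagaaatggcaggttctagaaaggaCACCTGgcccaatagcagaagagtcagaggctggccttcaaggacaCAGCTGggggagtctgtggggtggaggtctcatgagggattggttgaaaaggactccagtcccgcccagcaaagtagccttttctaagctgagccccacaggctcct
Ckb (chr12:111672339-111672588, minus strand): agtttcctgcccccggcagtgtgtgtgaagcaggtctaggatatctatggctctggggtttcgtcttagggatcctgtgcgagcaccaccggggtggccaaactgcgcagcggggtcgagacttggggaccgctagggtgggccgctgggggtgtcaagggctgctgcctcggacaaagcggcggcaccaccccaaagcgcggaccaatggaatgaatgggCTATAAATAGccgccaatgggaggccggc
The whole windows were searched on both strands. That of Ckm held 1 E-box and that of Ckmt2 held 4, and 66.2% of all 32851 promoter windows of the same length held at least 1. In the Ckb window 1 MEF2 site lay 29 to 20 bases before the start and overlapped the TATAAA match. MEF2 sites were present in 2.92% of all windows and TATAAA in 12.4%. No CArG box, the motif of serum response factor, and no AAGGTCA, the core bound by estrogen-related receptors, was matched in these 3 windows; they were present in 1.47% and 4.08% of all windows.

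Levels per length set the genes in one order in each of the 15 libraries: Ckmt2, Ckm, Ak1, Slc6a8, Ckb, Ak4, Gamt and Gatm. The scale is CPM per kilobase of exon, where the length counts all annotated exons of a gene, so genes with many annotated forms are understated. Ckmt2 averaged 996 ± 133 (SD, n = 8) in wild type and 1002 ± 147 (SD, n = 7) in kidney disease, which placed it 37th of the genes tested. Ckm averaged 363 ± 48.6 and 371 ± 62.5. The cytosolic adenylate kinase Ak1 averaged 257 ± 30.4 in wild type and 235 ± 17.0 in kidney disease. The ranges of Ckm and Ak1 over all libraries overlapped, although Ckm was higher by 1.34 to 1.90 times within each library. No other neighbouring genes in the order overlapped. At the other end, Gatm averaged 0.803 ± 0.113 in wild type and 1.04 ± 0.0553 in kidney disease. The transporter gene stood far above the synthesis genes, with Slc6a8 at 44.3 to 81.7 times Gatm in single libraries. Ckmt1, the mitochondrial creatine kinase of non-muscle tissues, was the lowest creatine kinase, at 0.187 ± 0.108 and 0.200 ± 0.121.

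**Figure D1:**
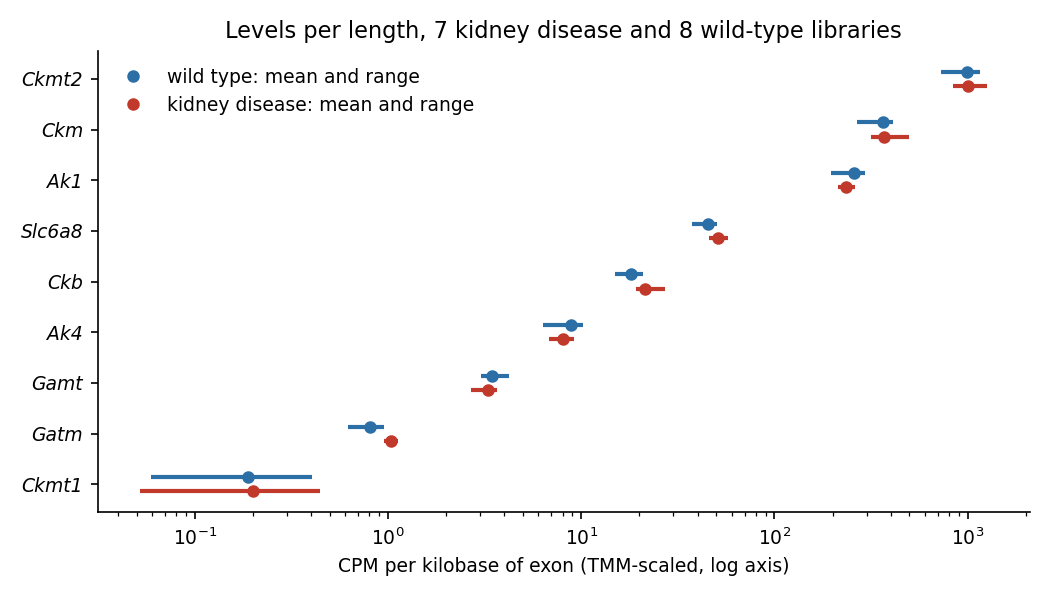
CPM per kilobase of exon (log axis) of the 8 genes and of Ckmt1, with points for group means and lines for the range over 8 wild-type (blue) and 7 kidney disease (red) libraries. Levels run from 0.187 for Ckmt1 to 1002 for Ckmt2, and the groups separate only for Gatm.

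Among the creatine kinases, the muscle pair Ckm and Ckmt2 had differences near 0 between the groups. Ckm, the muscle form of the cytosol and M-band (ENSMUSG00000030399, chromosome 7, 19404776 to 19422841, GRCm38), ran from 921 CPM over a median of 1046 to 1444 CPM in kidney disease. In wild type it ran from 783 over 1083 to 1197 CPM. The groups overlapped, and 1 kidney disease animal lay above all wild-type animals. The log2 difference was 0.03 (SE 0.10, 95% interval -0.18 to 0.25, adjusted p = 0.94), an interval that spans folds of 0.883 to 1.19. Ckmt2, the mitochondrial form of heart and skeletal muscle (ENSMUSG00000021622, chromosome 13, 91853387 to 91876885), ran from 1248 over 1482 to 1881 CPM in kidney disease. Its wild-type levels ran from 1084 over 1549 to 1719.7 CPM. The animals of both groups were interspersed, with 4 of 7 kidney disease animals above the wild-type mean. The log2 difference was 0.01 (SE 0.10, interval -0.20 to 0.21, adjusted p = 0.99). Without kidney disease 6 and wild type 7 the differences were -0.10 (adjusted p = 0.51) for Ckm and -0.11 (adjusted p = 0.48) for Ckmt2, so both changed sign. Each shares exon bases with an annotated antisense gene, 776 bases for Ckm and 99 for Ckmt2. Those antisense genes had at most 224 and 128 counts in a library, against at least 41902 for Ckm and 58018 for Ckmt2.

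Ckb, the cytosolic form of brain that is also made in fetal heart and in vessels and nerves (ENSMUSG00000001270, chromosome 12, 111669361 to 111672338), had higher values in kidney disease without passing the test. It ran from 55.3 over 56.9 to 78.8 CPM in the diseased group, and from 43.3 over 54.3 to 60.2 CPM in wild type. All 7 kidney disease animals were above the wild-type mean and 3 were above every wild-type animal, and the groups overlapped. The log2 difference was 0.24 (SE 0.09, interval 0.05 to 0.42, unadjusted p = 0.014, edgeR adjusted p = 0.24). The high end rested on kidney disease 3 and 6, at 68.5 and 78.8 CPM, and without kidney disease 6 and wild type 7 the difference was 0.13 (adjusted p = 0.38). Processed pseudogenes of Ckb had 58 counts in all 15 libraries together, against at least 2100 for Ckb in each library. Ckb made up 1.54% ± 0.143 of creatine kinase transcript per length in kidney disease (range 1.32% to 1.72%) and 1.33% ± 0.195 in wild type (1.08% to 1.66%). The muscle pair therefore held nearly all of the creatine kinase transcript in both groups. The Ckmt2 share was 71.9% ± 1.07 and 72.3% ± 1.29, and the Ckm share 26.6% ± 1.12 and 26.4% ± 1.24. The lengths were all annotated exons, 2913 bases for Ckm and 1486 for Ckmt2, so these shares depend on the annotation. By counts without length, Ckm made up 38.9% to 43.6% of the pair in single libraries.

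**Figure D2:**
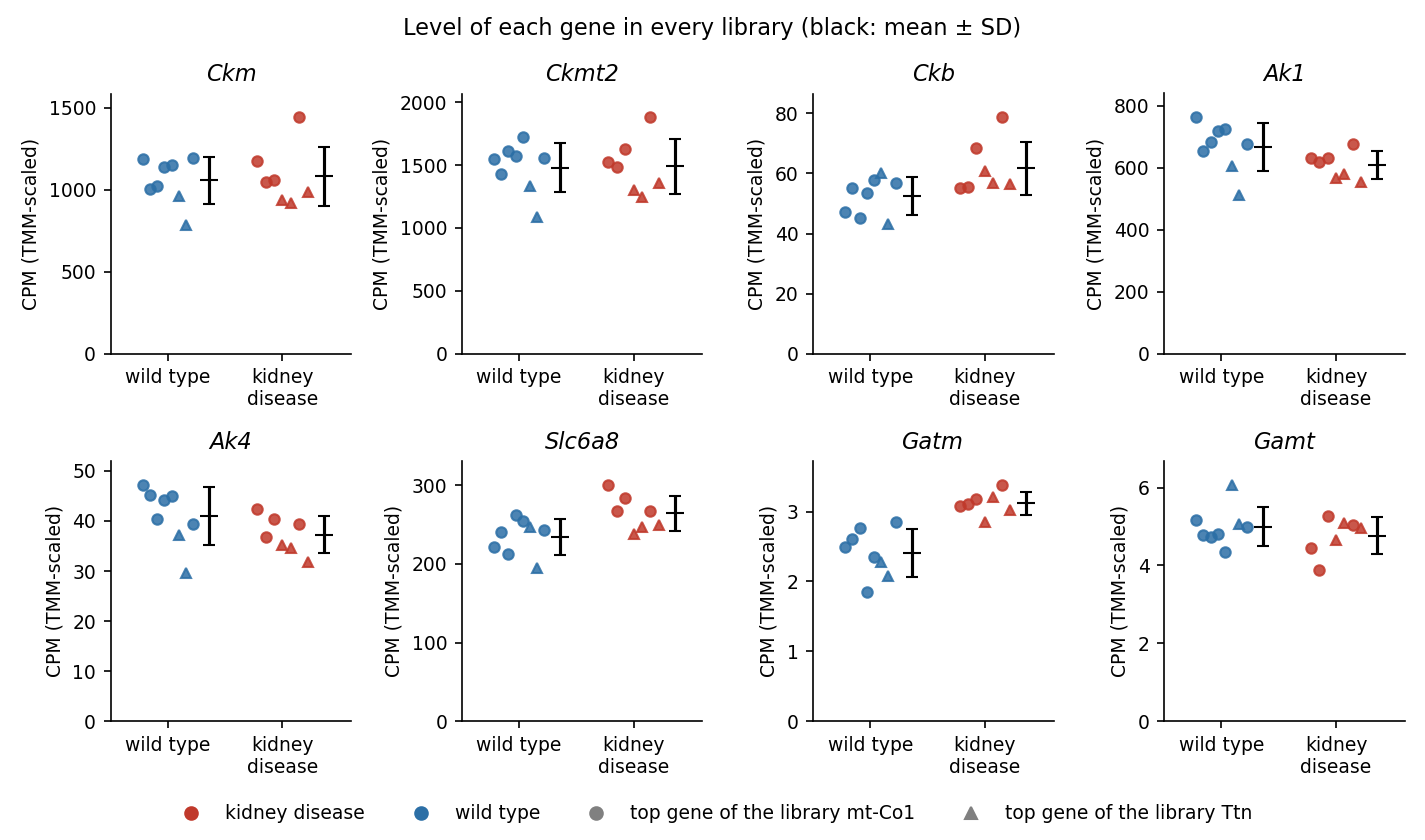
TMM-scaled CPM of each gene in every library, with group mean ± SD in black and triangles for libraries whose top gene was Ttn. Kidney disease and wild type separate for Gatm alone, at 2.85 CPM, and overlap for the other 7.

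The adenylate kinases had lower values in kidney disease, also without passing the test. Ak1, the main cytosolic form of muscle (ENSMUSG00000026817, chromosome 2, 32621758 to 32635058), ran from 554 over 620.1 to 678 CPM in kidney disease. In wild type it ran from 511 over 679.5 to 763 CPM. Only 1 of 7 kidney disease animals was above the wild-type mean, yet the lowest library of all was a wild-type one. The log2 difference was -0.13 (SE 0.08, interval -0.29 to 0.03, adjusted p = 0.53). Ak4, a form of the mitochondrial matrix (ENSMUSG00000028527, chromosome 4, 101419277 to 101466995), had 31.8, 36.8 and 42.4 CPM as lowest, median and highest in kidney disease and 29.5, 42.3 and 47.3 CPM in wild type. Its log2 difference was -0.14 (SE 0.09, interval -0.32 to 0.04, adjusted p = 0.57), again with 1 of 7 animals above the wild-type mean. Without kidney disease 6 and wild type 7 the differences were -0.21 for Ak1 (SE 0.06, adjusted p = 0.066) and -0.21 for Ak4 (SE 0.07, adjusted p = 0.13), neither past the threshold. Leaving out these animals, picked on such levels, lowers both differences by construction. The ratio of Ak4 to Ak1 per length averaged 0.0341 ± 0.00193 over diseased animals, against 0.0343 ± 0.00200 over wild-type ones.

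Of the supply genes, the transporter and the first enzyme had higher values in kidney disease. Slc6a8, the sodium- and chloride-dependent creatine transporter (ENSMUSG00000019558, chromosome X, 73673150 to 73682502), ran from 237 over 267 to 301 CPM in the diseased group, and from 195 over 242 to 262 CPM in wild type. All 7 kidney disease animals were above the wild-type mean, and 4 were above every wild-type animal. The log2 difference was 0.17 (SE 0.07, interval 0.03 to 0.32, unadjusted p = 0.021, adjusted p = 0.28). Without kidney disease 6 and wild type 7 it was 0.14 (adjusted p = 0.31).

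Gatm, which makes guanidinoacetate from arginine and glycine and is most abundant in kidney and pancreas (ENSMUSG00000027199, chromosome 2, 122594467 to 122611303), had the largest difference of the 8. Its counts were low, 163 to 211 in diseased and 102 to 145 in wild-type libraries. Its level was 2.85, 3.10 and 3.39 CPM as lowest, median and highest in kidney disease. The wild-type values were 1.85, 2.42 and 2.85 CPM. The groups did not overlap, by the margin between 2.854 and 2.851 CPM. It was the only gene of the 8 without overlap, and 0.565% of all genes tested had none (0.386% with kidney disease higher). The log2 difference was 0.37 (SE 0.11, interval 0.15 to 0.60, unadjusted p = 0.0023), which edgeR gave an adjusted p of 0.095. DESeq2 gave it an adjusted p of 0.025 with a log2 difference of 0.37, and edgeR with a term for the top gene of the library gave 0.40 and an adjusted p of 0.045. That fit called 2.52% of all genes tested, 1.62% as higher in kidney disease. Without kidney disease 6 and wild type 7 the difference was 0.33 (adjusted p = 0.14).

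Gamt, which methylates guanidinoacetate to creatine (ENSMUSG00000020150, chromosome 10, 80258151 to 80261012), ran from 3.89 over 4.95 to 5.26 CPM in kidney disease. Its wild-type levels were 4.34, 4.90 and 6.08 CPM. The animals of the groups were interspersed, and the log2 difference was -0.07 (SE 0.09, interval -0.26 to 0.12, adjusted p = 0.84). The difference without both extreme animals was -0.08 (adjusted p = 0.77).

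**Figure D3:**
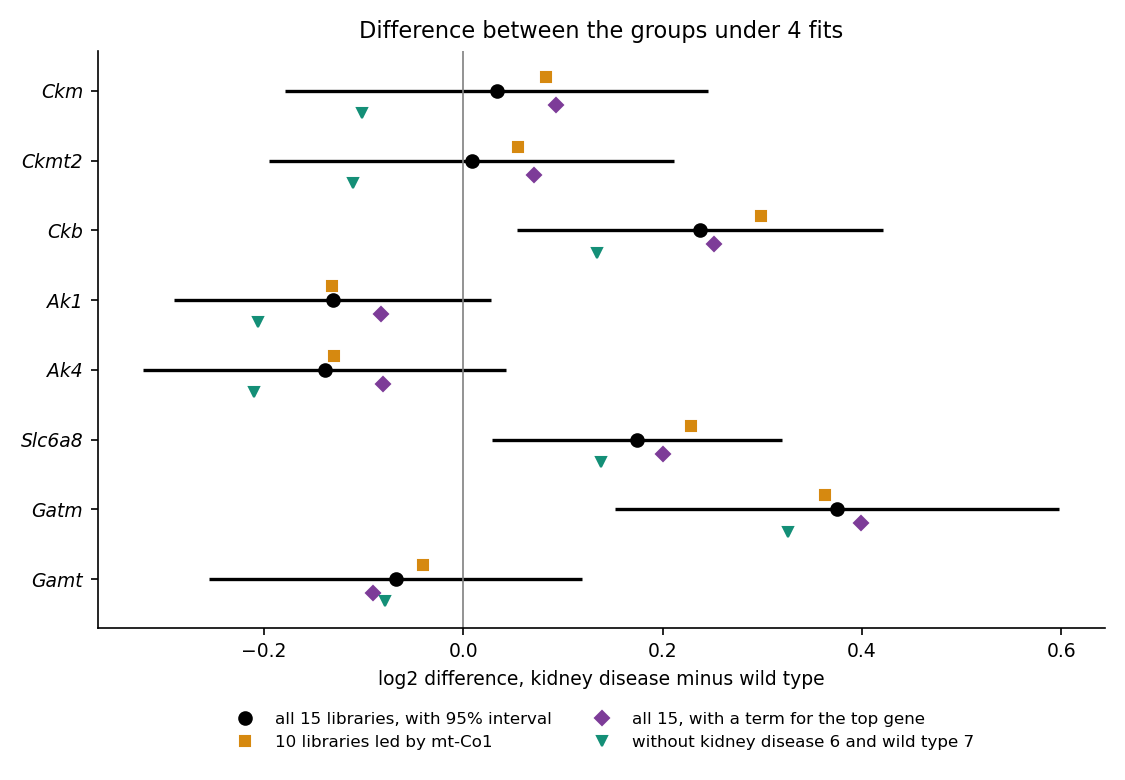
Log2 difference between kidney disease and wild type for each gene: black points with 95% intervals are from all 15 libraries, and coloured points are from 3 other fits. The intervals of Ckb, Slc6a8 and Gatm lie above 0 before adjustment, and the points of Ckm and Ckmt2 fall on both sides of 0.

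Markers of other cell types were read beside these genes, and the macrophage, fibroblast and B cell lists held several that rose. Over all genes tested 0.811% rose, 0.473% fell and 12.4% had an unadjusted p under 0.05 by edgeR. Of 10 macrophage markers 7 rose and none fell, and their summed level of 410 to 579 CPM in diseased animals lay above the 299.9 to 359.7 CPM of wild type. Of 10 fibroblast markers 5 rose and none fell, with sums of 2266 to 2876 CPM and 2221 to 2584 CPM. The endothelial markers had 0 of 8 past the edgeR threshold and 2 at an unadjusted p under 0.05 (median 0.11), with sums of 887 to 1102 CPM and 830 to 1105 CPM. The smooth muscle and pericyte list had 0 of 10 past the threshold and 2 at an unadjusted p under 0.05 (median 0.03), with sums of 3345 to 3782 CPM and 3260 to 4041 CPM. The adipocyte list had 0 of 5 tested past the threshold and 2 at an unadjusted p under 0.05 (median -1.07), with sums of 254 to 468 CPM and 215 to 346 CPM. The atrial list had 0 of 6 past the threshold and 0 at an unadjusted p under 0.05 (median 0.56), and its sums ran widely within both groups, from 35.6 to 1793 CPM and from 39.8 to 1511 CPM. Of the 8 Schwann cell and nerve markers Uchl1 rose and none fell, with 1 at an unadjusted p under 0.05. The list median was -0.13, and the sums were 19.2 to 24.1 CPM and 17.0 to 21.7 CPM. Of 6 B cell markers 5 rose, with sums of at least 16.9 CPM in each diseased animal, above each wild-type one (lowest 7.10 CPM). The erythroid list had 0 of 6 past the threshold but 6 at an unadjusted p under 0.05 (median -0.62), with sums of 310 to 822 CPM and 559 to 1076 CPM. None of these markers was at 0 in every library. The part of these cells in the values of Ckb, Slc6a8 and Gatm was not tested.

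The kind of library also moved with several of the genes. In libraries led by Ttn, Ckm averaged 947 CPM against 1183 CPM in those led by mt-Co1 within kidney disease, and 874 against 1118 CPM within wild type. Ckmt2 averaged 1302 against 1629 CPM and 1210.0 against 1571 CPM. Ak4 was 33.9 against 39.8 CPM and 33.4 against 43.6 CPM. Ckb differed less, at 58.0 against 64.5 CPM and 51.8 against 52.6 CPM. Ak1 was 566 against 641 CPM and 559 against 703 CPM, and Slc6a8 was 245 against 280 CPM and 221 against 239 CPM. Gatm was 3.03 against 3.19 CPM and 2.18 against 2.49 CPM. Gamt went the other way, at 4.90 against 4.66 CPM and 5.57 against 4.80 CPM. Within the 10 libraries led by mt-Co1 (4 kidney disease, 6 wild type) the log2 differences between the groups were 0.08 for Ckm, 0.06 for Ckmt2, 0.30 for Ckb, 0.23 for Slc6a8 and 0.36 for Gatm. In the 5 libraries led by Ttn (3 and 2) they were 0.11, 0.10, 0.16, 0.14 and 0.47. Ak1 and Ak4 had -0.13 and -0.13 in the first set and 0.014 and 0.019 in the second. No gene of the 8 passed in either set.

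Across animals, the muscle genes of the system varied together. Levels were taken as log2 CPM minus the group mean, and the 28 pairs were compared by permutation within groups with Benjamini-Hochberg adjustment. Ckm and Ckmt2 had Pearson r = 0.91 (permutation p = 0.0001, adjusted p = 0.00084) and Spearman rho = 0.84 (permutation p = 0.00037, adjusted p = 0.0027) over 15 libraries. Without kidney disease 6 and wild type 7, the libraries farthest from the median of Ckm, r was 0.80, and within the 10 libraries led by mt-Co1 it was 0.71. Ckm and Ak1 had r = 0.88 (permutation p = 2e-05, adjusted p = 0.00056) and rho = 0.88 (permutation p = 9e-05, adjusted p = 0.0025), with 0.84 without both animals and 0.69 within those 10 libraries. Ckmt2 and Ak1 had r = 0.90 (permutation p = 4e-05, adjusted p = 0.00056) and rho = 0.84 (permutation p = 0.00021, adjusted p = 0.0027), with 0.81 and 0.59. These r values stayed positive and were smaller in both checks, which were given no p-value.

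Several relations with the other genes were smaller within the libraries led by mt-Co1 or without the extreme animals. Ak4 followed Ak1 with r = 0.91 (permutation p = 0.00012, adjusted p = 0.00084) and rho = 0.84 (permutation p = 0.00039, adjusted p = 0.0027), 0.78 without wild type 1 and 7 and 0.46 within the 10 libraries. Ak4 and Ckm had r = 0.74 (permutation p = 0.0026, adjusted p = 0.012) and rho = 0.69 (permutation p = 0.0066, adjusted p = 0.037), which dropped from 0.68 without 2 animals to 0.14 within the 10 libraries, so it did not hold there. Ckb and Ckm had r = 0.55 (permutation p = 0.040, adjusted p = 0.093) and rho = 0.32 (permutation p = 0.25, adjusted p = 0.40). That value was 0.08 without kidney disease 6 and wild type 7 and thus rested on them, while it was 0.54 within the 10 libraries, which hold kidney disease 6. Ckb and Ckmt2 had r = 0.56 (permutation p = 0.036, adjusted p = 0.092) and rho = 0.41 (permutation p = 0.14, adjusted p = 0.26), with 0.15 without those animals and 0.64 within the 10 libraries. Of the 28 pairs 7 passed by Pearson's r, all positive and none with Gatm, Gamt or Ckb. The share of pairs of other genes that would pass was not computed. Whether 7 of 28 is more than other abundant genes show in these libraries was therefore not tested. Of these 7, Ckmt2 with Ak4 (permutation p = 0.019, adjusted p = 0.090) and Slc6a8 with Ak4 (permutation p = 0.033, adjusted p = 0.12) did not pass by Spearman's rho. For Ckmt2 with Ak4, r was 0.77, with 0.66 without kidney disease 6 and wild type 7 and -0.02 within the 10 libraries. For Slc6a8 with Ak4 it was 0.69, with 0.42 without kidney disease 1 and wild type 7 and 0.35 within the 10 libraries. The Ttn-led set of 5 libraries was too small for a correlation.

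**Figure D4:**
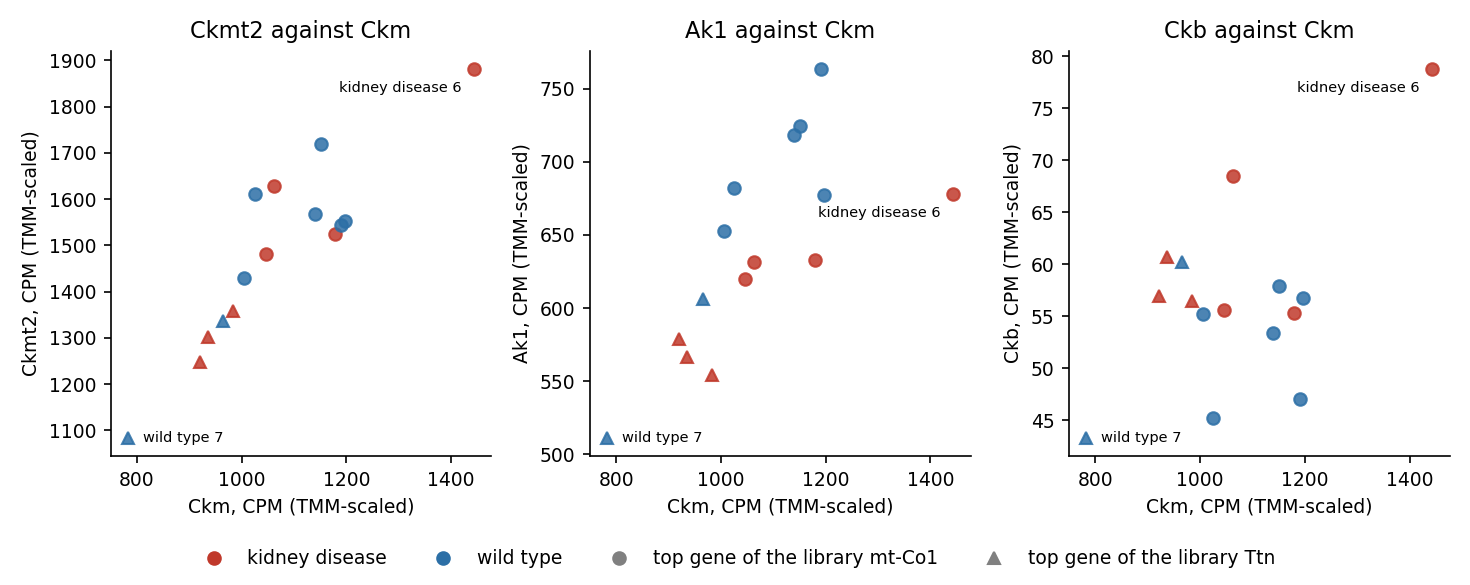
Ckmt2, Ak1 and Ckb against Ckm in TMM-scaled CPM, 1 point per library, red for kidney disease, blue for wild type and triangles for libraries led by Ttn. Ckmt2 and Ak1 climb with Ckm from wild type 7 (783 CPM of Ckm) upwards, while for Ckb only wild type 7 and kidney disease 6 (1444 CPM of Ckm) stand out along such a line.

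The protein-coding genes whose deviations were most like those of each gene over the 15 libraries are given as a description. For Ckm they were Acot13, a mitochondrial thioesterase (r = 0.99), Sdhb, a subunit of respiratory complex II (0.99), and Cox4i1, a subunit of cytochrome oxidase (0.99). Each of these values was above the r of 0.91 between Ckm and Ckmt2, so varying with Ckm was not particular to the creatine genes. For Ckmt2 they were Poldip2 (0.98), the glycolytic aldolase Aldoa (0.98) and the complex I subunit Ndufa10 (0.97). For Ak1 they were the peroxisome factor Pex19 (0.98) and the citric acid cycle genes Idh3a (0.98) and Mdh2 (0.97), and for Ak4 Csnk2a1 (0.96), Hsdl2 (0.96) and Calu (0.96). The genes nearest to Ckb were Relt (0.94), Cdca7 (0.93) and Hist1h2bk (0.91), and those nearest to Slc6a8 were Optn (0.90), Mettl8 (0.89) and Ppp2r5c (0.88). Gatm and Gamt, which had far fewer counts, had lower best values, and the part of low counts in this was not tested. With Gatm they were 0.86 for Was, 0.86 for Rrad and 0.85 for Limd2. With Gamt they were 0.81 for Dusp6, 0.80 for Hddc3 and 0.80 for Tvp23a. All these values are the highest over the protein-coding genes tested, and what unrelated genes would reach was not computed. Libraries of both groups and of both kinds enter these values.

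Genes that share substrates with the system were read from 5 lists. In the list of other phosphotransfer kinases, 14 of 18 genes were tested and none passed edgeR's test, with 0 at an unadjusted p under 0.05 and 0 by DESeq2 or limma-voom. The list median was 0.09. The smallest p-values belonged to the thymidylate kinase gene Dtymk (0.17, SE 0.08, adjusted p = 0.42), the nucleoside diphosphate kinase gene Nme4 (0.18, SE 0.10, adjusted p = 0.50) and the UMP-CMP kinase gene Cmpk1 (0.12, SE 0.09, adjusted p = 0.62). Nme3 was listed at 0 in every library. Of 23 genes of creatine precursors, methyl donors and transport, 20 were tested and none passed, with 0 by DESeq2 or limma-voom (median 0.01). There were 3 of 20 at an unadjusted p under 0.05, a share near the 12.4% of all genes. Those 3 were the glycine methyltransferase gene Gnmt (0.34, SE 0.13, adjusted p = 0.26), the nicotinamide methyltransferase gene Nnmt (0.44, SE 0.17, adjusted p = 0.27) and the taurine transporter gene Slc6a6 (0.25, SE 0.10, adjusted p = 0.30). Slc6a6, a relative of Slc6a8, had 205 ± 32.6 CPM (SD, n = 7) against 173 ± 26.6 CPM (SD, n = 8).

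Of the adenine nucleotide cycle and AMP-activated kinase genes, 21 of 22 were tested, 2 rose and none fell (median -0.02), where 0.811% of all genes rose. There were 6 of 21 at an unadjusted edgeR p under 0.05, beside 12.4% of all genes. Entpd1, an ectoenzyme that breaks down extracellular ATP and ADP, rose by 0.37 (SE 0.08, edgeR adjusted p = 0.033), from 16.8 ± 2.10 to 21.7 ± 2.55 CPM. Camkk2, a kinase that activates AMP-activated kinase, rose by 0.24 (SE 0.05, adjusted p = 0.034), from 18.8 ± 1.16 to 22.1 ± 1.25 CPM. Both were higher than the wild-type mean in 7 of 7 animals. The Entpd1 difference was 0.46 (adjusted p = 0.055) in the mt-Co1-led libraries and 0.19 (adjusted p = 0.74) in the Ttn-led ones, and that of Camkk2 was 0.21 (adjusted p = 0.17) and 0.23 (adjusted p = 0.58). With a library left out, Entpd1 passed in 6 of 15 fits and Camkk2 in 4, with adjusted p from 0.0078 to 0.073 and from 0.018 to 0.075. Entpd1 kept its call when the animal left out was kidney disease 5, kidney disease 6 or wild type 2, 4, 7 or 8. For Camkk2 these animals were kidney disease 6 and wild type 2, 7 and 8. Not past the threshold were the nucleotidase genes Nt5c1a (-0.35, SE 0.09, adjusted p = 0.062) and Nt5c2 (0.18, SE 0.05, adjusted p = 0.11) and the kinase subunit gene Prkab2 (-0.23, SE 0.07, adjusted p = 0.17). DESeq2 called Nt5c1a and Nt5c2 too. With a replicate block only Nt5c1a passed (-0.38, adjusted p = 0.029), while Entpd1 (adjusted p = 0.064) and Camkk2 (adjusted p = 0.11) did not.

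All 22 genes of mitochondrial exchange and the M-band were tested, with 4 at an unadjusted edgeR p under 0.05, beside 12.4% of all genes. Of the 22, 1 rose and 1 fell (median -0.02), beside 0.811% and 0.473% of all genes. Both genes encode related calcium-dependent carriers that exchange ATP-magnesium for phosphate across the inner mitochondrial membrane. Slc25a24 rose by 0.36 (SE 0.08, adjusted p = 0.026), from 6.45 ± 0.505 to 8.30 ± 0.819 CPM, and Slc25a23 fell by 0.25 on the log2 scale (SE 0.06, adjusted p = 0.038), from 47.7 ± 2.95 to 40.0 ± 3.37 CPM. Slc25a23 shares 168 exon bases with an antisense gene that had at most 8 counts in a library. With a library left out, Slc25a24 passed in 12 of 15 fits, all but those that left out kidney disease 3, wild type 3 or wild type 6. Slc25a23 passed in 3, those that left out kidney disease 5, wild type 7 or wild type 8. Neither passed with a replicate block (adjusted p = 0.12 and 0.066). The Slc25a24 difference was 0.46 (adjusted p = 0.047) in the mt-Co1-led libraries and 0.19 (adjusted p = 0.74) in the Ttn-led ones, and that of Slc25a23 was -0.29 (adjusted p = 0.12) and -0.18 (adjusted p = 0.64). The main ADP/ATP carrier of heart, Slc25a4, had a log2 difference of 0.10 (SE 0.10, adjusted p = 0.78), chosen for mention after its value was seen. Myom1, an M-band protein that binds muscle creatine kinase, had -0.17 (SE 0.06, adjusted p = 0.17) and Tspo had 0.21 (SE 0.09, adjusted p = 0.36). Of these DESeq2 called Myom1 (adjusted p = 0.026).

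Among 25 regulators of muscle phosphotransfer genes, all tested, 1 fell and none rose (median -0.08), where 0.473% of all genes fell. At an unadjusted edgeR p under 0.05 there were 5 of 25, beside 12.4% of all genes. Thrb, a thyroid hormone receptor gene, fell by 0.25 on the log2 scale (SE 0.06, adjusted p = 0.036), from 32.1 ± 1.64 to 27.0 ± 2.31 CPM, with no overlap between groups. It passed in 5 of 15 fits with a library left out, those that left out kidney disease 2, kidney disease 7 or wild type 2, 7 or 8, and had an adjusted p of 0.084 with a replicate block. Its difference was -0.28 (adjusted p = 0.14) in the mt-Co1-led libraries and -0.23 (adjusted p = 0.53) in the Ttn-led ones. The coactivator gene Ppargc1b (-0.32, SE 0.11, adjusted p = 0.21), the respiratory regulator gene Nrf1 (0.16, SE 0.06, adjusted p = 0.25) and the hypoxia factor gene Epas1 (-0.20, SE 0.08, adjusted p = 0.27) did not pass.

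**Figure D5:**
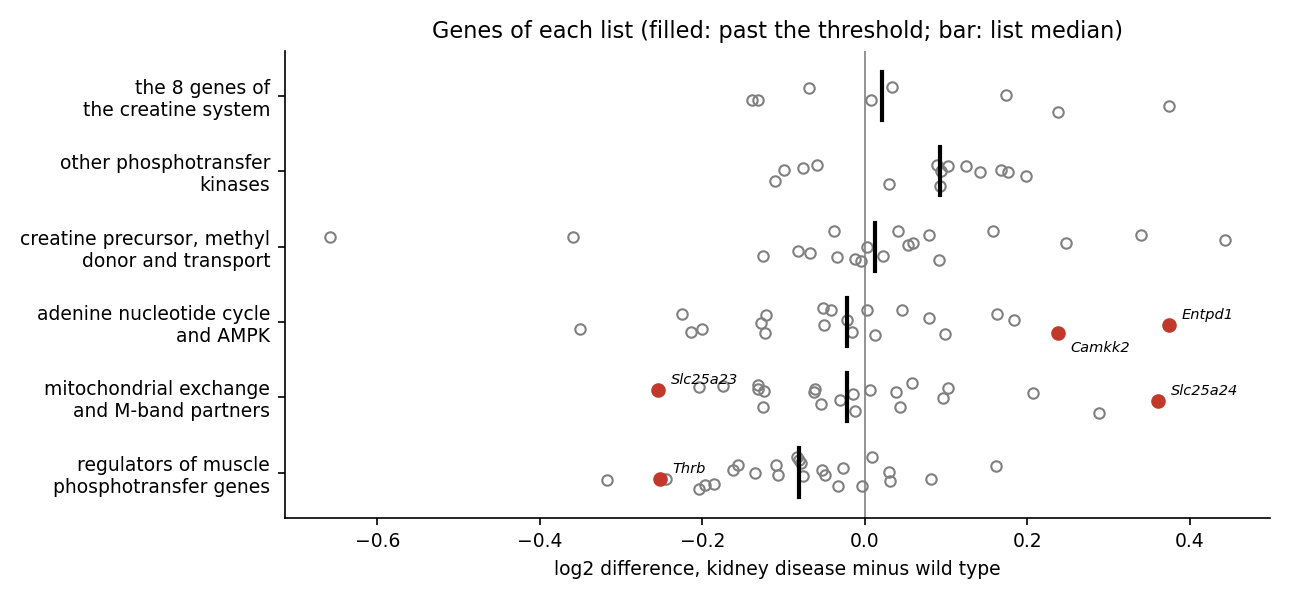
Log2 difference between kidney disease and wild type for each tested gene of the 8-gene system and of 5 related lists, with filled points past the edgeR threshold and bars for list medians. The medians lie between -0.08 and 0.09, and 5 genes pass: Entpd1, Camkk2 and Slc25a24 above 0, Slc25a23 and Thrb below 0.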

How the data were processed

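Raw counts per gene were deposited by the authors, 1 table per library. Per the submitters' processing notes, bcl2fastq, STAR 2.7.9a, Subread and featureCounts 2.0.3 were used with GRCm38. No source used here gives the counting options or strand; genes that overlap on either strand are therefore uncertain. Symbols came from GENCODE M21, which held 55227 of 55487 identifiers.

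Genes were kept with filterByExpr (minimum count 10), scaled by TMM and compared between groups, the single model term, by the quasi-likelihood test of edgeR 4.0.16 in R 4.3.3, with Benjamini-Hochberg adjustment over 20718 genes and a threshold of 0.05. Differences are kidney disease minus wild type on the log2 scale, with SE and 95% interval from that fit. The code was tested on simulated counts. No 2 libraries held identical counts. Gatm and Gamt had the fewest counts of the 8 genes (from 102 and 218 in a library), which limits their precision.

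Named genes are the 8 genes, Col4a5, the 3 genes most like each, and, from each list, genes past the threshold and the next 3 by p. Of these, 1 gene is not reported here. Cell markers and Slc25a4 were named beside these. The genes, lists and library kinds were chosen with earlier results of these data known. Alternatives were RLE scaling, no filter, DESeq2 1.42.0, limma-voom (limma 3.58.1), a replicate block, removal of mitochondrial genes, a term for the top gene, and each library left out. Subsets by top gene, and the fit without kidney disease 6 and wild type 7, were added after seeing the data. Permutation tests used 100000 draws.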

Additional observations from a re-analysis of the deposited data

Results flagged for a closer look

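Each of the 8 genes was searched in both groups, 16 sets of values, for an animal set apart by a wide gap. There was 1, and at the chance rate of 1 in 20 there would be 0.8. Wild type 6 had a Gamt level of 6.08 CPM, apart from the other 7 wild-type animals, which lay between 4.34 and 5.16 CPM.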

How the results depend on the processing

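The 15 fits that left out a library gave 97 to 388 genes past the threshold against 266 with all, 0 to 3 of the adenine nucleotide list, 0 to 2 of mitochondrial exchange and M-band partners and 0 or 1 of the regulators. None called any of the 8 genes. Ckm ranged from -0.0497 to 0.0685 and Ckmt2 from -0.0567 to 0.0466, below 0 without kidney disease 6 or wild type 7 (Ckmt2 also without kidney disease 3 or wild type 6). Gatm ranged from 0.33 to 0.42 (adjusted p = 0.067 to 0.18). The cause of these shifts was not tested. DESeq2 called 640 genes, the term for the top gene 523 and the fit without kidney disease 6 and wild type 7 480. DESeq2 called 1 of the 8 genes, Gatm (0.37), and 4 of the adenine nucleotide list; the term for the top gene called 1 of the 8, Gatm (0.40). Without a filter there were 1, 1 and 0 calls in the adenine nucleotide, exchange and regulator lists. Within libraries led by mt-Co1 there were 86 genes in all and 0, 1 and 0 in those lists, and within those led by Ttn 3 in all and 0, 0 and 0. Ak1 (0.014) and Ak4 (0.019) were above 0 in the libraries led by Ttn, and Ckm (-0.10) and Ckmt2 (-0.11) were below 0 without kidney disease 6 and wild type 7.

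Replicate numbers are shared between groups, but same-numbered animals correlated at -0.20 to 0.42 in their deviations and 3 of 7 were below 0, so the numbers were not taken as pairs. With the replicate block over animals 1 to 7 there were 116 genes past the threshold, 1 in the adenine nucleotide list and 0 in the exchange and regulator lists, and none of the 8 genes. The direction of each of the 8 genes was kept under the block, with Gatm at 0.42 (adjusted p = 0.12).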

Other observations

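The balance between Ckm and Ckmt2, which does not depend on scaling, is given as values. It was looked at after its values were seen, and it was not tested. As a share of the counts of both genes, Ckm made up 38.9% in wild type 3, 39.5% in kidney disease 3 and 40.1% in wild type 5. In the next 8 libraries it lay between 41.3% and 42.5%: kidney disease 2, 4, 5 and 7 and wild type 2, 4, 6 and 7. In the remaining 4, kidney disease 1 and 6 and wild type 1 and 8, it was 43.4% to 43.6%. The largest gaps between neighbouring values were 1.20, 0.95 and 0.611 percentage points. The exact 95% binomial interval of a single library was at most 0.613 percentage points wide and covers counting error only, not the spread between animals. All 5 libraries led by Ttn were among those 8, and animals of both groups stood at either end.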
